A study of Homo sapiens with 15 samples.

Results

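The comparison described here sets the 3 libraries labelled Resistant-shMYC2 against the 3 libraries of Parental-MYC T58A, the 2 groups of the series in which the MYC transcript was most abundant. The groups were chosen by the measured MYC level, so MYC itself is described without a test. A gene was a member when its normalised read count (reads divided by a size factor for the library) was at least 10 in at least 3 of these 6 libraries. Of 18322 genes in the table, 15492 were members. Members at 10 or more in all 6 libraries numbered 12387 (80.0%), while 653 (4.22%) reached the limit through shMYC2-labelled libraries alone and 1597 (10.3%) through MYC T58A libraries alone. Genes of the last 2 kinds had to differ between the groups, so counts over all members are a description. Just inside the limit, RP11-769O8.3 and CPN1 had a third-highest value of 10.02 (for CPN1, 0 in each library labelled shMYC2 and 10.02, 15.6 and 15.9 in MYC T58A), and just outside it CIB2 and AC005077.12 had 9.70.

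All libraries are labelled as A375, an established human melanoma cell line, and are mRNA sequencing of biological triplicates. The 5 groups are Parental A375, Resistant (a clonal population of A375 resistant to PLX4720, an inhibitor of the BRAF kinase), Resistant-shMYC1 and Resistant-shMYC2 (the resistant cells with a short hairpin RNA against MYC) and Parental-MYC T58A (parental cells with the MYC T58A mutant). By their labels the resistant cells, and with them both hairpin groups, stem from a single clonal population; these origins were not checked beyond the values given below. The promoter that drives MYC T58A, the hairpin sequences and the drug in the medium at harvest are not stated in the labels, and in these counts reads of a MYC construct and of the cells' own MYC gene cannot be told apart.

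MYC is a transcription factor that binds DNA as a dimer with MAX, preferentially at the E-box CACGTG, and is best known for driving ribosome production, nucleotide synthesis and cell growth. Proteins of the MXD family, MNT and MGA also pair with MAX and compete with MYC for these sites, as repressors. The threonine that T58A replaces is part of the phosphorylated signal by which cells mark the protein for destruction, and the T58A mutant is degraded more slowly. In melanoma, MYC is studied among the routes by which cells outgrow inhibitors of the MAPK pathway.

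Neither group labelled with a hairpin against MYC had less MYC transcript than Resistant, and the group labelled shMYC2 had far more. MYC stood at 7760.4, 8099.9 and 7589.5 normalised reads in these 3 libraries, at 3612, 3425 and 3496 in MYC T58A and at 329.8, 274 and 304 in Resistant, so the group carrying the hairpin label held the highest MYC of the series. Its mean of 7817 ± 259.8 (SD, n = 3) was 2.23 times that of MYC T58A (3511 ± 94.4), 25.8 times that of Resistant and 18.5 times that of Parental (423 ± 11.9). The libraries labelled shMYC1 held 459, 518 and 481, a mean 1.61 times that of Resistant. Across member genes on the log2 scale, 2 libraries labelled shMYC2 correlated at 0.9946 to 0.9948 and 2 MYC T58A libraries at 0.9949 to 0.9951. A library of the first group and a library of the second correlated at 0.773 to 0.780. MYC T58A correlated with Parental at 0.947 to 0.949, whereas the shMYC2-labelled libraries reached no more than 0.793 with any library of another group (0.780 to 0.787 with Resistant, the cells they are labelled as derived from). The libraries labelled shMYC1 correlated with Parental at 0.976 to 0.979 and with Resistant, their labelled origin, at 0.950 to 0.955. These correlations are across genes and describe the libraries. In what follows the group is called the libraries labelled shMYC2.

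**Figure D1:**
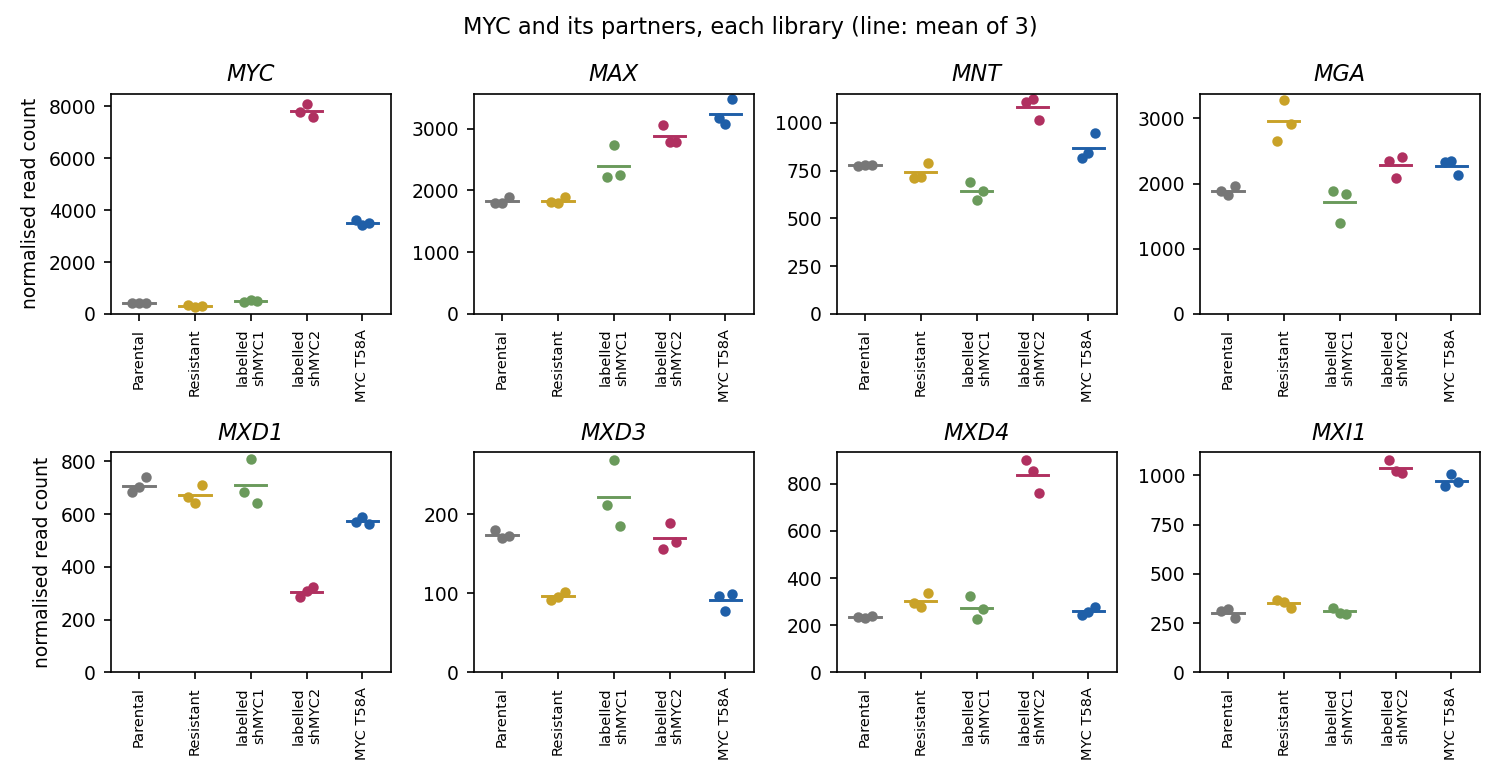
Normalised read counts (vertical axes, starting at 0) of MYC, its partner MAX and 6 proteins that compete for MAX, in each of the 15 libraries; points are libraries, lines the mean of the 3 libraries of a group. MYC is highest in the libraries labelled shMYC2 (7589.5 to 8099.9) and next in MYC T58A (3425 to 3612), MXI1 stands between 944 and 1078 in both of these groups and at no more than 368 in the other 3, and MXD4 is raised in the libraries labelled shMYC2.

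Most member genes differed between the 2 MYC-high groups. By limma on log2(value + 1), fitted over all 15 libraries, and Benjamini-Hochberg adjusted p under 0.05 over 17012 tested genes, 6104 members were higher in the libraries labelled shMYC2 (39.4%) and 6574 lower (42.4%), 12678 together (81.8%; 79.3% of all tested genes). Among members at 10 or more in all 6 libraries, 9940 of 12387 were called (80.2%), 5238 higher (42.3%) and 4702 lower (38.0%). The 3 libraries of one group did not overlap those of the other for 13196 members (85.2%, against 81.9% of all tested genes). Many of these differences were small: the median absolute log2 difference was 0.72, and 3293 called members differed by less than 0.5. Tested against a minimum log2 difference of 0.5, 7630 members were called (49.3%; 48.3% of all tested genes). At the other end 645 called members were higher by 3 or more on the log2 scale and 1557 lower by as much. Depth was similar, at 24415163 to 28227222 reads in genes per library, yet 1636 to 1694 genes of the table had no read in a library labelled shMYC2 against 575 to 665 in a MYC T58A library. Counts for the gene lists below are to be read beside the 39.4% higher and 42.4% lower over all members. For each gene named below with a call, the 3 libraries of one group did not overlap those of the other. The p-values rest on the spread between libraries within groups, estimated per gene over all 15 libraries of the 5 groups together and adjusted by that of other genes. In bulk RNA fewer cells expressing a gene and less RNA per cell cannot be told apart.

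**Figure D2:**
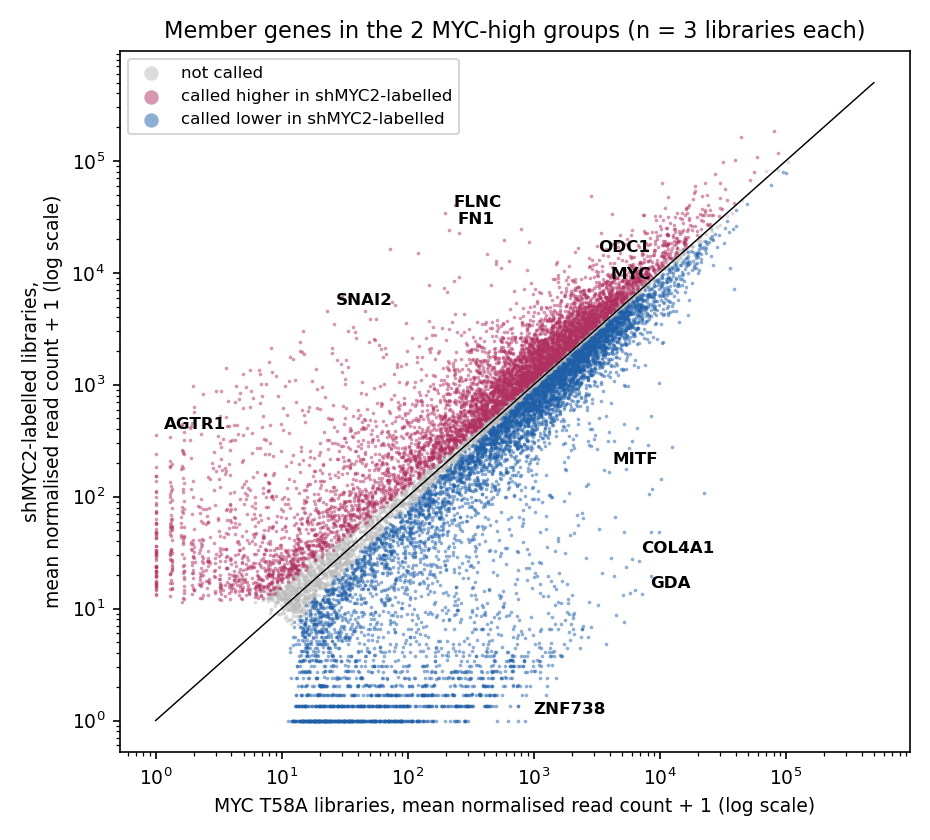
Mean normalised read count plus 1 of each member gene in the 3 MYC T58A libraries (horizontal, log scale) and in the 3 libraries labelled shMYC2 (vertical, log scale), coloured by the limma call, with the line of equality. Called genes lie on both sides along the whole range, and a dense row at the bottom and a thinner column at the left are genes with no or almost no read in one of the groups.

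The 2 groups are also labelled as made from different cells, so the change of each from its labelled origin was compared (shMYC2-labelled minus Resistant, less MYC T58A minus Parental), a contrast whose parts share no library. By the same limma fit 11837 members differed in this change (76.4%; 75.0% of all tested genes), 5697 with a more positive change in the libraries labelled shMYC2 (36.8%) and 6140 with a more negative one (39.6%). Taken separately, 6118 members (39.5%) were higher and 6246 (40.3%) lower in the libraries labelled shMYC2 than in Resistant, and 5088 (32.8%) were higher and 4901 (31.6%) lower in MYC T58A than in Parental. Members called higher in both numbered 2319, which is 37.9% of the calls in the libraries labelled shMYC2 and 45.6% of those in MYC T58A, and members called lower in both numbered 2265 (36.3% and 46.2%). Another 1817 were higher in the first and lower in the second, and 1864 the reverse. Of the genes raised in both, 606 showed no called difference in the direct comparison, and of those lowered in both, 387. Over all members 32.8% were higher and 31.6% lower in MYC T58A than in Parental, and the overlap itself was not tested.

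Ranked by the smaller of the 2 changes, among genes with a mean of at least 10 in these 4 groups and of 100 in at least 1 of them, the genes raised most in both after MYC itself were MAGEB2, FLNC and TMEM200A, a ranking set up after the values had been seen. MAGEB2, a cancer-testis antigen of the MAGE family, stood at 56.1, 31.7 and 38.6 normalised reads in Parental and 35.2, 24.4 and 20.9 in Resistant, against 3430.2, 3339.7 and 3471 in the libraries labelled shMYC2 and 1979, 1929 and 1898 in MYC T58A. Its log2 changes from the labelled origin were 6.97 in the libraries labelled shMYC2 and 5.53 in MYC T58A. MAGEA1, of the same family, changed by 5.55 in the libraries labelled shMYC2 and 2.59 in MYC T58A. The gene lowered most in both was C3, the central complement component. Its mean was 12445 in Resistant and 13.5 in the libraries labelled shMYC2, and 4995 in Parental and 33.6 in MYC T58A. FLNC stood at 22.8, 14.3 and 19.8 normalised reads in Parental and at a mean of 197 in MYC T58A, and the latter is 0.580% of its mean in the libraries labelled shMYC2 (33961). That percentage lies within the medians of 0.552% to 0.615% at which genes silent in the other 3 groups were read in MYC T58A, as described further on, and its part in the FLNC change was not tested. TMEM200A in MYC T58A was at 14.3% of its level in the libraries labelled shMYC2. COL5A1, a fibrillar collagen chain, changed by -5.71 in the libraries labelled shMYC2 and -5.89 in MYC T58A. CD74, the chaperone of MHC class II, changed by -5.77 in the libraries labelled shMYC2 and -5.64 in MYC T58A. For COL5A3 both groups stood at the same level, with means of 52.8 and 52.5 normalised reads against 1065 and 1814 in their labelled origins.

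Among the MYC network genes other than MYC, 7 of 23 members were called higher and 10 lower, with a median log2 difference of -0.09. Over all members 39.4% were higher and 42.4% lower, with a median of -0.03. MAX, the obligate partner of MYC, had 3052, 2789 and 2774 normalised reads in the libraries labelled shMYC2 and 3165, 3075 and 3482 in MYC T58A, which lie close together (log2 difference -0.17, SE 0.07, limma adjusted p = 0.033). Leaving out the third MYC T58A library, or the second or the third library labelled shMYC2, ended this call, with limma adjusted p from 0.096 to 0.16. Both groups were above Parental, at 1793, 1796 and 1891. MXI1, a MAX partner that opposes MYC, was at 1078, 1022 and 1012 and 944, 1009 and 965, with a 95% interval of the log2 difference from -0.05 to 0.24 and no call, and at 314, 319.5 and 274 in Parental and 368, 356 and 328 in Resistant. MXD4, another such antagonist, differed most among the repressors, with 901, 854 and 761 against 244, 256 and 279 normalised reads, 3.23-fold higher in the libraries labelled shMYC2 (log2 difference 1.69, SE 0.11, limma adjusted p = 9.28e-11). MXD1 went the other way, at 287, 307 and 323 against 568, 588 and 562 (1.87-fold lower, limma adjusted p = 4.26e-09). MXD3 was 1.87-fold higher and MNT 1.25-fold higher in the libraries labelled shMYC2 (with equal library totals MNT was not called, limma adjusted p = 0.066), while MGA and MYCL were not called, with log2 differences of 0.01 (95% interval -0.21 to 0.22) and 0.37 (-0.24 to 0.98). MYCN was not analysed here. PIM2 and PIM3, kinases that cooperate with MYC, were lower, PIM2 at 118, 148 and 98.2 against 578, 633 and 682 normalised reads (5.19-fold lower).

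Textbook MYC targets were mostly lower in the libraries with the higher MYC transcript level. Of 61 members, 10 were called higher and 45 lower, with a median log2 difference of -0.49, against -0.03 over all members. The median was -0.62 under quantile normalisation and -0.66 with equal library totals. Against the labelled origins the list's median changes were 0.12 against Resistant in the shMYC2-labelled libraries and 0.44 against Parental in the MYC T58A libraries, and in the difference of these changes 14 members were called higher and 37 lower. ODC1, the first enzyme of polyamine synthesis, was the member raised most. It stood at 13324, 13588 and 13511 normalised reads in the libraries labelled shMYC2 and at 2679.9, 2844 and 2778 in MYC T58A, 4.87-fold higher (log2 difference 2.28, SE 0.05, limma adjusted p = 4.76e-18). LDHA, which makes lactate, was 3.09-fold higher, at 96701, 100376 and 97011 against 32627, 32222 and 30265. At the other end SLC7A5, a transporter of large neutral amino acids, had 10644, 11241 and 11199.7 against 37201, 35958 and 34856 normalised reads and was 3.26-fold lower (log2 difference -1.71, SE 0.08, limma adjusted p = 2.78e-12). TFB2M, a mitochondrial transcription factor, was 3.00-fold lower, with means of 998 and 2997, and TCOF1, the nucleolar protein treacle, 2.66-fold lower. For these 5 genes no library of one group reached into the range of the other.

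The E-box was searched as CACGTG, which reads the same on both strands, in RefSeq promoter windows of GRCh38.p14 (250 bases before to 50 after each gene's start). A window was found for 10867 of the 15492 members. The E-box was present in 7.26% of all 35116 windows, in 10.1% of those of members, in 10.1% of members called higher, 9.95% called lower and 10.2% not called. Among MYC targets 24 of 54 windows held it (44.4%), 19 of 40 for targets called lower and 3 of 9 for targets called higher. Among ribosome biogenesis genes 19 of 56 did (33.9%). The 250 bases before the start are shown for the 2 targets lowered most and the 2 raised most whose E-box lies there, 5′ to 3′ on the gene's strand, with each CACGTG in capitals; a match is a description of these letters and no measure of binding. The windows are chr16:87869508-87869757, minus strand for SLC7A5 (3.26-fold lower), chr14:24188817-24189066, minus strand for IPO4, an importin (2.30-fold lower), chr11:18394313-18394562, plus strand for LDHA (3.09-fold higher) and chr12:57752311-57752560, minus strand for CDK4, the kinase that opens the cell cycle (1.32-fold higher).
SLC7A5: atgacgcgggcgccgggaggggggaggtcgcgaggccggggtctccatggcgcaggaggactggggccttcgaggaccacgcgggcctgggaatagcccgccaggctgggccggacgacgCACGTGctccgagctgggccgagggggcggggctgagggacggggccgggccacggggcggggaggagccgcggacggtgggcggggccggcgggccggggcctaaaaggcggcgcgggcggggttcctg
IPO4: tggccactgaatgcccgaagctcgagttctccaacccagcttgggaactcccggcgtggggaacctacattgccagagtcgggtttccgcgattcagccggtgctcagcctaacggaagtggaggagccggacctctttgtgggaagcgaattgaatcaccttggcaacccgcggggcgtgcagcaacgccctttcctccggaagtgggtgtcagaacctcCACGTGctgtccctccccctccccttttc
LDHA: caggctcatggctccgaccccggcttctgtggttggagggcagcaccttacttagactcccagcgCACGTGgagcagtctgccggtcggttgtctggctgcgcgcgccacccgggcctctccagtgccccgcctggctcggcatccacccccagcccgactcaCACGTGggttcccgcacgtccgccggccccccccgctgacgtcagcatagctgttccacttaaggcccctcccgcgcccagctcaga
CDK4: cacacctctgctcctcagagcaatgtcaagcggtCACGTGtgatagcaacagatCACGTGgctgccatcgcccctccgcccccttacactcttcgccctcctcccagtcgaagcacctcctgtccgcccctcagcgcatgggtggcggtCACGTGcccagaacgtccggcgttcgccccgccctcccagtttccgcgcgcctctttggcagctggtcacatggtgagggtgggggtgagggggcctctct
The first base of the single E-box lies 130 bases before the start in SLC7A5 and 29 bases before it in IPO4. LDHA holds 2, at 185 and 87 bases, and CDK4 holds 3, at 216, 196 and 101 bases.

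Ribosome biogenesis genes, which make and process ribosomal RNA, were mostly lower as well. Of 66 members, 4 were higher and 55 lower, with a median log2 difference of -0.45 (-0.58 under quantile normalisation and -0.62 with equal library totals). The list shares 17 members with the MYC targets (25.8% of it, and 27.9% of the targets), and of the 49 others 3 were higher and 41 lower. Median changes from the labelled origins were 0.11 against Resistant in the shMYC2-labelled libraries and 0.45 against Parental in the MYC T58A libraries. HEATR1, a processome subunit, stood at 4572, 4288 and 4715 normalised reads in the libraries labelled shMYC2 and 13499, 13689 and 13085 in MYC T58A (2.97-fold lower, log2 difference -1.57, SE 0.05, limma adjusted p = 2.67e-15). TAF1A, a subunit of the RNA polymerase I initiation factor, was 2.91-fold lower, and BRIX1 2.86-fold lower. The median of neighbouring genes around HEATR1 and TAF1A on chromosome 1 was lower as well, as given further on. UBTF, the polymerase I activator, went up instead, at 8649.6, 8332 and 8634 against 6398, 6279 and 6088 (1.37-fold higher), as did BOP1 with means of 1444 ± 119 and 850.3 ± 131 (SD, n = 3).

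The ribosome's own protein genes moved less: 40 of 81 members were called higher and 8 lower, with a median log2 difference of 0.19. That median was 0.06 under quantile normalisation and 0.02 with equal library totals, where the lower calls rose from 8 to 18 and 15. RPS18 had 47076, 47065 and 42200.2 normalised reads against 18703, 17753 and 18334 (2.49-fold higher), and RPL39L, a paralogue of RPL39, 1291, 1428 and 1283 against 231, 238 and 287 (5.29-fold higher). RPS28 stood apart from its family, at 91.5, 87.6 and 90.02 in the libraries labelled shMYC2 and 1515, 1697 and 2043 in MYC T58A, 19.5-fold lower (log2 difference -4.26, SE 0.11, limma adjusted p = 6.26e-15). Ribosomal protein genes have many near-identical processed copies, and how the counting treated reads shared with these is not stated, so single members of this family are uncertain.

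Genes of nucleotide and one-carbon synthesis were mostly lower: 8 of 37 members were called higher and 24 lower, with a median log2 difference of -0.57 (-0.65 under quantile normalisation and -0.74 with equal library totals). PHGDH, which opens the serine pathway, was at 11.8, 6.26 and 12.3 normalised reads in the libraries labelled shMYC2 and 1862, 1861 and 1867 in MYC T58A (184-fold lower, log2 difference -7.44, SE 0.16, limma adjusted p = 3.58e-14). PSAT1, the next enzyme of that pathway, had 1043, 989 and 1064 against 10145, 9824 and 9383 (9.48-fold lower). The mitochondrial folate enzyme ALDH1L2 was 41.9-fold lower. In the same list RRM2, a ribonucleotide reductase subunit, was 1.89-fold higher and CTPS1, which makes CTP, 1.51-fold higher. PHGDH was high in all other groups too, with means of 2792 in Parental, 4726 in Resistant and 2827 in the libraries labelled shMYC1.

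Among genes of polyamines, amino acid uptake and glutamine, 9 of 29 members were called higher and 19 lower, with a median log2 difference of -0.55 (-0.80 under quantile normalisation and -0.72 with equal library totals). Beside ODC1, its inhibitor gene OAZ1 was 2.01-fold higher, at 14156, 15235 and 14164 against 6962, 6595 and 8143 normalised reads. The transporter SLC38A1 had 3648, 3404 and 3775 against 14474, 14699 and 13592 (3.95-fold lower), and ARG2, a mitochondrial arginase, was 16.9-fold lower. Genes of the ATF4 amino acid stress response shared part of this pattern: 8 of 34 members were called higher and 22 lower, with a median log2 difference of -0.68 (-0.59 under quantile normalisation and -0.85 with equal library totals). That list also holds PHGDH, PSAT1 and ALDH1L2, and GDF15, a stress-induced cytokine, was 38.5-fold lower, at 69.98, 62.6 and 59.3 against 2441, 2335 and 2611. VLDLR and VEGFA of the same list were 3.83-fold and 2.80-fold higher.

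Glycolysis genes were raised in the libraries labelled shMYC2, where 23 of 33 members were called higher and 7 lower, with a median log2 difference of 0.61 (0.48 under quantile normalisation and 0.44 with equal library totals; 4 members reached the limit in 1 group alone). The lactate exporter SLC16A3 stood at 7723, 8407 and 7223 normalised reads against 154, 142 and 147, 52.6-fold higher (log2 difference 5.71, SE 0.09, limma adjusted p = 3.26e-19), and at means of 163 in Parental and 193 in Resistant. Another monocarboxylate transporter, SLC16A7, was nearly lost, at 4.31, 1.04 and 2.05 against 1124, 1077 and 1003 (ratio 433, 95% interval from counting alone 211 to 1085). PDK1, which restrains pyruvate oxidation, was 5.88-fold higher and the enolase ENO2 4.34-fold higher, while PDK4 was at 0, 0 and 1.02 against 96.2, 82.1 and 89.9. Hypoxia response genes, which share PDK1 and other members with glycolysis, were higher as well: 24 of 33 members were called higher and 5 lower, with a median log2 difference of 1.02 (0.76 under quantile normalisation and 0.85 with equal library totals). ANGPTL4, a secreted lipase inhibitor, had 969, 1099 and 958 against 72.1, 61.3 and 59.9 normalised reads (15.6-fold higher), and the adenylate kinase AK4 was 5.76-fold higher. In this list ARNT2 was lower (ratio 75.98, 95% interval from counting alone 37.9 to 175). Counting intervals cover counting error only, here and below.

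Nuclear genes of the respiratory chain had 31 of 57 members higher and 11 lower (median 0.22; 0.12 under quantile normalisation and 0.05 with equal library totals), with COX7A2 2.13-fold higher and the succinate dehydrogenase subunit SDHA 2.27-fold lower. Of 15 mitochondrially encoded transcripts, 10 were higher and 1 lower. Of 35 sterol and fatty acid genes 13 were higher and 15 lower, close to the 39.4% and 42.4% of all members, and with equal library totals 10 were higher and 19 lower. INSIG1, which holds back sterol synthesis, was 4.75-fold higher, at 2492, 2612 and 2631 against 535, 546 and 547 normalised reads. DHCR7, the last enzyme of cholesterol synthesis, was at 0, 6.26 and 4.09 against 2257, 2318 and 2394 (673-fold lower, log2 difference -9.45, SE 0.55, limma adjusted p = 1.55e-08). That ratio rests on few reads in the libraries labelled shMYC2, 1 of them at 0, so its size is uncertain.

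Genes of cell cycle entry and DNA replication went in both directions: 24 of 46 members were called higher and 17 lower, with a median log2 difference of 0.18 (0.13 under quantile normalisation and 0.01 with equal library totals). E2F1 and E2F8, transcription factors of S phase, were 3.00-fold and 4.71-fold higher, E2F8 at 664, 628 and 693 against 147, 143 and 130.4 normalised reads. CDKN2C, an inhibitor of CDK4 and CDK6, was 3.84-fold higher, and cyclin E1 (CCNE1) 3.18-fold lower. Mitosis genes were balanced at 16 higher and 15 lower of 44, with the spindle protein TPX2 2.01-fold higher and the kinase PLK1 1.70-fold lower; with equal library totals 10 were higher and 23 lower. In the difference of changes from the labelled origins, 27 mitosis genes were higher and 8 lower, beside medians of 0.03 against Resistant in the shMYC2-labelled libraries and -0.23 against Parental in the MYC T58A libraries. Replication-dependent histones had 0 of 14 members higher and 9 lower, with a median log2 difference of -1.15 (-0.38 under quantile normalisation and -1.32 with equal library totals). Under quantile normalisation 2 were higher and 6 lower. Their summed level was low, at 530 to 877 normalised reads in the libraries labelled shMYC2 and 1607 to 1684 in MYC T58A.

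**Figure D3:**
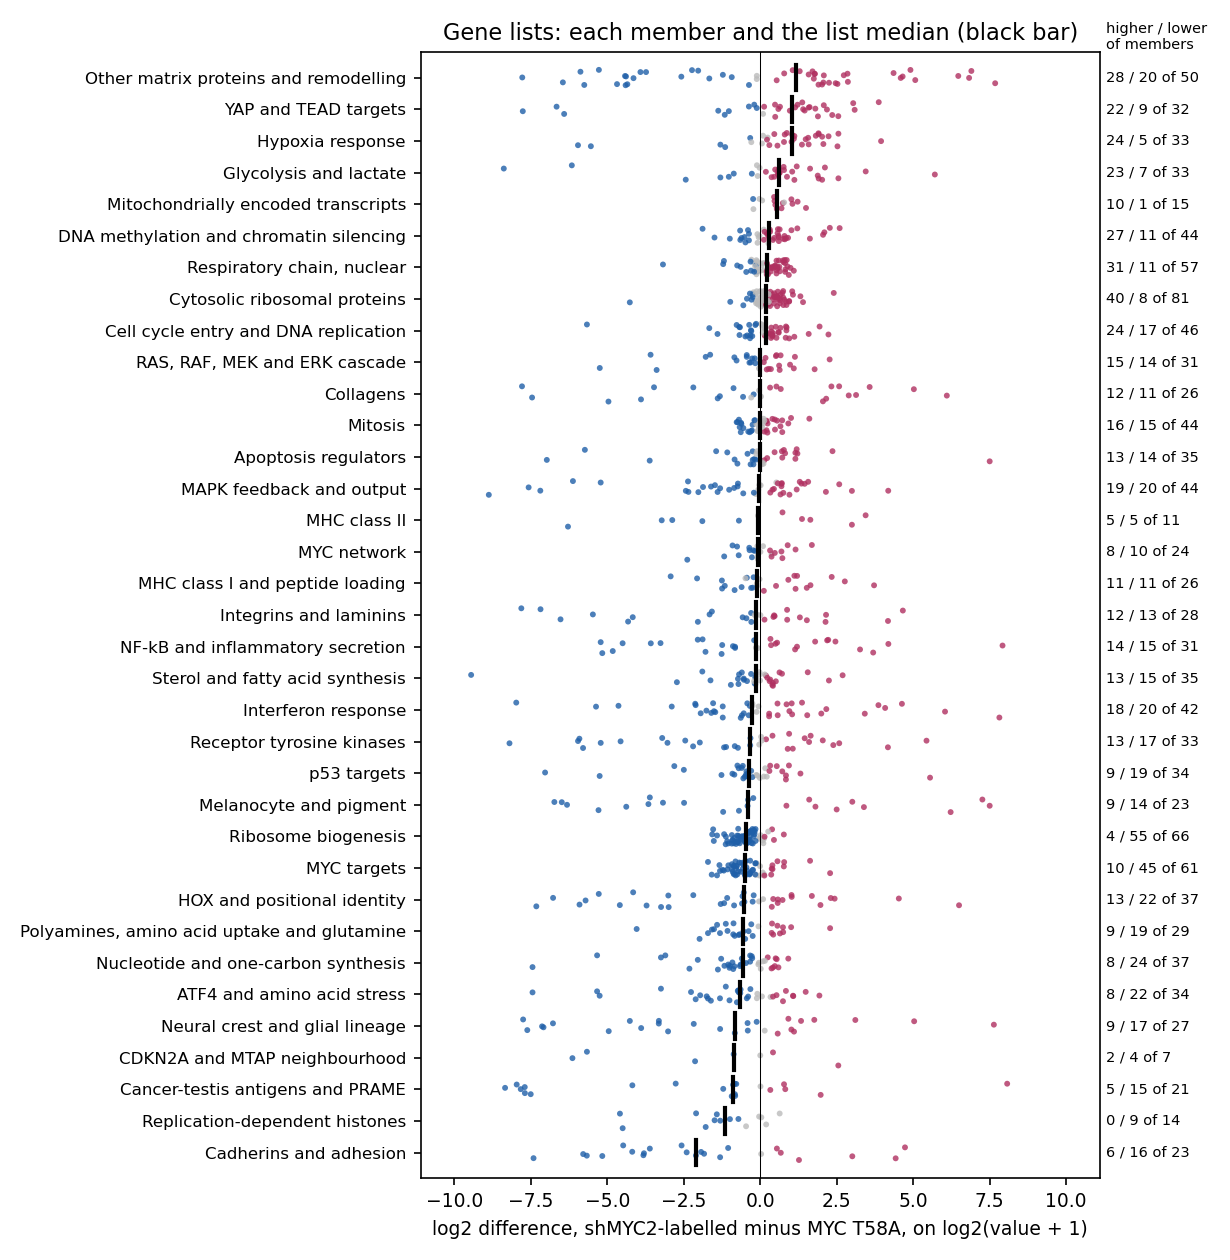
Log2 difference (libraries labelled shMYC2 minus MYC T58A, horizontal axis) of each member of 35 gene lists, ordered by median; coloured points are limma calls, grey points are not called, black bars are list medians, and the right margin gives members higher and lower of all members (the MYC network row includes MYC, which chose the groups). Medians run from the cadherin list at -2.10 to other matrix proteins at 1.18, and lists with a median near 0 hold members far to both sides.

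Of the regulators of the melanocyte lineage, MITF separated the groups and SOX10 was near the limit in both. MITF, the master regulator of pigment cells, was at 152, 169 and 197 normalised reads in the libraries labelled shMYC2 and 3808, 3538 and 3431 in MYC T58A (20.8-fold lower, log2 difference -4.38, SE 0.08, limma adjusted p = 1.19e-18), with means of 1509 in Parental and 3748 in Resistant. SOX10, which acts above MITF in this lineage, was at 16.1, 18.8 and 23.5 and 11.02, 9.35 and 7.05, against 5453, 5178 and 5215 in Parental, 9.60, 4.70 and 8.19 in Resistant and 13181, 11458 and 11031 in the libraries labelled shMYC1. In Resistant, as in both MYC-high groups, SOX10 was near the limit. Among pigment genes, 9 of 23 members were called higher and 14 lower, with a median log2 difference of -0.41, and 8 members reached the limit in 1 group alone. DCT, a pigment enzyme, had no read in the libraries labelled shMYC2 and 81.1, 72.7 and 81.97 in MYC T58A (at least 25.01-fold lower). SLC24A5, an ion exchanger of the pigment granule, had 136, 146 and 178 and no read in MYC T58A (at least 52.4-fold higher). The labels call the cells melanocytes. Of 10 melanocyte markers 8 were in the table, and their summed level was 720.3 to 789.7 normalised reads in the libraries labelled shMYC2, 4001 to 4410.1 in MYC T58A and 7255 to 7536 in Parental. The sum was mostly MITF in MYC T58A and mostly SOX10 in Parental. PAX3, a regulator of MITF, went the other way, with means of 460.4 in the libraries labelled shMYC2 and 243 in MYC T58A. MLANA and TYR were not analysed here.

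Neural crest and glial genes moved far in both directions: 9 of 27 members were called higher and 17 lower, with a median log2 difference of -0.83, with 9 members at the limit in 1 group alone. SNAI2, a regulator of neural crest migration, stood at 4551, 4549.6 and 4579.9 against 24.04, 20.8 and 21.2 normalised reads (207-fold higher). TFAP2C, of the AP-2 family, had 10.8, 7.30 and 13.3 against 1537, 1605 and 1548 (149.5-fold lower), and ZIC1 was at 1.08, 0 and 1.02 against 358, 325 and 355 (ratio 494, 95% interval from counting alone 137 to 4106). Of the HOX and positional identity genes, which record the body region of a cell's origin, 13 of 37 were higher and 22 lower, 10 of them at the limit in 1 group alone. HOXB13 had no read in the libraries labelled shMYC2 and 149, 155 and 172 in MYC T58A, with means of 265 in Parental, 256 in Resistant and 238 in the libraries labelled shMYC1. HOXC10 was 122-fold lower. PITX1, a hindlimb factor, was 92.1-fold higher, at 3138, 3159 and 2794 against 26.05, 37.4 and 35.3 and at a mean of 8.29 in Parental.

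MTAP and CDKN2A, neighbours on chromosome 9 that are often deleted together in melanoma, were both low in the libraries labelled shMYC2. MTAP, an enzyme of methionine salvage, had 152, 135 and 146 normalised reads there and 10381, 10703 and 9547 in MYC T58A (70.8-fold lower, log2 difference -6.14, SE 0.06, limma adjusted p = 1.47e-22). Its means in the other groups were 7359 in Parental, 5258 in Resistant and 7666 in the libraries labelled shMYC1. CDKN2A, which encodes cell cycle inhibitors, was at 0, 1.04 and 0 against 62.1, 51.9 and 78.4 (ratio 185, 95% interval from counting alone 33.01 to 7384). In the same neighbourhood DMRTA1 was 4.46-fold lower, whereas MLLT3 was 1.34-fold higher and ELAVL2 5.90-fold higher.

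In the MAPK pathway, the target of PLX4720, members were called in both directions, as over all members. Feedback and output genes had 19 of 44 higher and 20 lower, close to the 39.4% and 42.4% of all members (5 at the limit in 1 group alone). DUSP6, a phosphatase of ERK that reads out pathway activity, was at 1989.6, 2026 and 2034 against 4813, 4991 and 5207 normalised reads (2.48-fold lower, log2 difference -1.31, SE 0.05, limma adjusted p = 3.06e-14). In the difference of changes DUSP6 had the opposite sign (1.19), since Resistant stood at a mean of 857 and Parental at 4865. DUSP4, another such phosphatase, was 149.8-fold lower, at 22.6, 29.2 and 29.7 against 4013, 4112 and 4084. SPRY1, a feedback inhibitor, was at 3.23, 0 and 0 against 740.4, 736 and 789 (ratio 701, 95% interval from counting alone 247 to 3508). DUSP10 and the transcription factor JUN were 18.3-fold and 7.99-fold higher, with JUN at 12367, 12202 and 11731 against 1492, 1526 and 1528.

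Of the cascade's own genes, BRAF, the drug's target, was 1.36-fold lower, at 1283, 1214 and 1256 against 1663, 1807 and 1624 normalised reads (log2 difference -0.44, SE 0.06, limma adjusted p = 1.33e-06). NRAS was 2.14-fold higher, at 9514, 8965 and 9631 against 4414, 4559.9 and 4162, and the small GTPase gene RRAS 4.84-fold higher. ARAF was 3.11-fold lower and RASA1, which switches RAS off, 3.43-fold higher. MAP2K1, which encodes the MEK1 kinase, was among the 5 genes most alike, with 3361, 3569 and 3417 and 3454, 3435 and 3473 normalised reads. The whole list had 15 of 31 members higher and 14 lower (3 at the limit in 1 group alone), and with equal library totals 9 higher and 16 lower. Receptor tyrosine kinases had 13 of 33 higher and 17 lower (8 at the limit in 1 group alone). EGFR was 1.86-fold higher (6243, 5805 and 6424 against 3304, 3465 and 3139). AXL, linked to drug tolerance in melanoma, was 2.74-fold higher (30735, 32135 and 32659 against 12062, 11702 and 11137). INSR, the insulin receptor, was at 0, 2.09 and 0 against 438, 421 and 417 (ratio 611, 95% interval from counting alone 168 to 5030.5), and ROR1 was 65.9-fold lower.

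YAP and TEAD target genes, a readout of Hippo signalling and cell tension, were mostly higher: 22 of 32 members were called higher and 9 lower, with a median log2 difference of 1.05 (0.93 under quantile normalisation and 0.88 with equal library totals). CYR61 had 12026, 13043 and 12375 normalised reads against 1552, 1558 and 1445 (8.22-fold higher), CTGF was 8.50-fold higher and VGLL3 14.6-fold higher. Against this, ANKRD1, another widely used target, was 108-fold lower, at 15.1, 14.6 and 12.3 against 1649, 1547 and 1331, and FOXF2 was at 2.15, 0 and 2.05 against 431, 469 and 479. The median changes from the labelled origins were 0.66 against Resistant in the shMYC2-labelled libraries and -0.29 against Parental in the MYC T58A libraries.

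The extracellular matrix differed by chain. Among collagens 12 of 26 members were higher and 11 lower (4 at the limit in 1 group alone). The collagen VI chains COL6A1, COL6A2 and COL6A3 were 11.9-fold, 32.6-fold and 69.6-fold higher, with COL6A3 at 3940.5, 3943 and 3700.1 against 51.1, 57.1 and 58.2 normalised reads (log2 difference 6.10, SE 0.06, limma adjusted p = 5.47e-22). The basement membrane chains COL4A1 and COL4A2 were 227-fold and 179-fold lower, with COL4A2 at 47.4, 44.8 and 50.1 against 8491, 8971 and 8034. Among further genes of matrix proteins, the laminins LAMA4 (238-fold lower), LAMA1 (165-fold lower) and LAMA5 (95.1-fold lower) and nidogen, NID1 (87.2-fold lower), were lower, while the laminin LAMB3 was 25.3-fold higher at 12281, 13476 and 12387 against 524, 488 and 493. Fibronectin, FN1, was 114-fold higher, at 25059, 23524 and 23832 against 206, 209 and 220.4; its means were 16564 in Parental and 13706 in Resistant, so the low group was MYC T58A. Of integrins and laminins 12 of 28 members were higher and 13 lower (3 at the limit in 1 group alone). The sign of the median of this list and of the collagens turned under another scaling. Of other matrix and remodelling genes 28 of 50 were higher and 20 lower, 10 at the limit in 1 group alone. THBS2 was 137-fold higher and the proteoglycan BGN was at 1.08, 3.13 and 2.05 against 677, 589.98 and 684.

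Cadherins and adhesion genes were mostly lower: 6 of 23 members were called higher and 16 lower, with a median log2 difference of -2.10 (-1.86 under quantile normalisation and -2.27 with equal library totals; 6 at the limit in 1 group alone). CADM4 was 60.9-fold lower and CDH6 was at 0, 1.04 and 0 against 218, 215 and 209.8 normalised reads. ALCAM, a cell surface adhesion molecule, went up to 33288, 32372 and 34466 against 4385, 4363 and 3718 (8.03-fold higher). Epithelial genes were mostly lower too, with 2 of 15 higher and 13 lower. DSG2, a desmosomal cadherin, was at 12.9, 10.4 and 15.3 in the libraries labelled shMYC2, 5929.9, 6025 and 5535 in MYC T58A and 4889.98, 4613 and 4376 in Resistant (452-fold lower than MYC T58A, log2 difference -8.73, SE 0.09, limma adjusted p = 4.79e-21).

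In the direct comparison immune genes were called in both directions, with 11 of 26 MHC class I and peptide loading genes higher and 11 lower, and 5 of 11 MHC class II genes higher and 5 lower (the sign of the MHC class I median turned under another scaling). Calls in both directions were common to all members, of which 39.4% were higher and 42.4% lower. Interferon response genes had 18 of 42 higher and 20 lower, and the sign of their median of -0.26 turned under another scaling (0.08 under quantile normalisation and -0.42 with equal library totals). MB21D1, which encodes the DNA sensor cGAS, was at 1352, 1364 and 1307 against 6.01, 2.08 and 8.81 normalised reads (238-fold higher), and at a mean of 1.37 in Parental. MX2, an antiviral GTPase, was at 7.54, 5.21 and 9.21 against 1995, 2158 and 1988 (279.7-fold lower) and at 2135 in Parental. HLA-B and HLA-C, classical MHC class I genes, were 5.06-fold and 6.81-fold higher, HLA-B at 1508, 1682 and 1536 against 289, 316 and 329.7; reads of these near-identical genes may have been split by the counting. The MHC class I regulator NLRC5 was 7.66-fold lower. In the NF-kB and inflammatory list, 14 of 31 were higher and 15 lower. CSF3 was at 651, 774 and 704 against 3.01, 0 and 5.29 (ratio 257, 95% interval from counting alone 128 to 535), and the adhesion receptor ICAM1 was 39.1-fold lower. The limit was reached in 1 group alone by 9 interferon response, 3 MHC class II and 7 NF-kB members, CSF3 among them. Such members had to differ. The median changes of these lists from the labelled origins were below 0 in both groups. For the libraries labelled shMYC2 and for MYC T58A they were -0.99 and -0.38 for interferon response, -1.15 and -0.51 for MHC class I, -2.47 and -3.74 for MHC class II and -2.31 and -0.92 for NF-kB. In the difference of these changes 14 interferon response genes were higher and 25 lower, 9 and 15 of MHC class I, 4 and 5 of MHC class II and 7 and 20 of NF-kB.

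Among p53 targets, 9 of 34 members were called higher and 19 lower, with a median log2 difference of -0.36 (-0.47 under quantile normalisation and -0.53 with equal library totals). CD82, a tetraspanin, was 47.7-fold higher, at 2517, 2626 and 2468 against 56.1, 49.9 and 53.8 normalised reads, and BTG2, an antiproliferative gene, 6.99-fold lower. Of apoptosis regulators 13 of 35 were higher and 14 lower (4 at the limit in 1 group alone). BCL2A1, a survival gene of the BCL2 family, was 187-fold higher at 855, 903 and 878 against 6.01, 1.04 and 7.05. CASP10 was at 1.08, 1.04 and 0 against 205, 204 and 198. Cancer-testis antigens, germline genes that some tumours express, had 5 of 21 higher and 15 lower (4 at the limit in 1 group alone). MAGEC2 was at 16.1, 14.6 and 24.6 against 4383, 4278 and 4247 (233-fold lower) and DDX43 at 868, 848 and 894 against 3.01, 2.08 and 1.76 (ratio 381, 95% interval from counting alone 186 to 958). Genes of DNA methylation and chromatin silencing had 27 of 44 higher and 11 lower (0.24 under quantile normalisation and 0.12 with equal library totals), with the methyltransferase DNMT3A 4.29-fold higher, at 637, 675 and 647 against 161, 136 and 159.5, the demethylating enzyme TET1 3.75-fold lower and SMARCA4, a chromatin remodeller, 2.82-fold lower.

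The largest differences were read among called genes whose mean reached 100 in the higher group and 10 in the lower one. CD93, a C-type lectin receptor, was at 16027, 16960.2 and 15758 normalised reads in the libraries labelled shMYC2 and 71.1, 76.9 and 64.3 in MYC T58A (229.6-fold higher, log2 difference 7.83, SE 0.35, limma adjusted p = 2.07e-11). HAS2, a hyaluronan synthase, was at 40522, 39251 and 40292 against 231, 223 and 261 (168-fold higher), and FLNC, the actin cross-linker filamin C, at 35314, 33892 and 32676 against 206, 190.1 and 195 (172-fold higher). Further increases named by the rule were C2CD2, FBN2, SNAI2, KRT34, APBB1IP, PTPRN2 and S1PR1, from 156-fold to 219-fold. In MYC T58A, APBB1IP and PTPRN2 were at 0.539% and 0.599% of their level in the libraries labelled shMYC2. Both belong to the 10 genes of the low-level set described below. The part of low-level reads in the folds of these increases was not tested. GDA, a guanine deaminase, gave the largest decrease by this rule, at 8.61, 14.6 and 14.3 against 7694, 7466 and 6346 (573-fold lower, log2 difference -9.08, SE 0.14, limma adjusted p = 2.49e-16). SFXN1, the mitochondrial serine carrier, was at 18.3, 13.6 and 9.21 against 6525, 6366 and 6128 (463-fold lower), and at 3721, 3549.7 and 3499 in Resistant. LINC01029, DSG2, NETO2, ABLIM1, PAGE5, IGFBP4, MAGEC2 and COL4A1 completed the decreases, from 227-fold to 459.9-fold. The lists leave out 1 gene that met the rule and is not reported here.

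Members with no read in any of the 3 libraries of a group numbered 63 for MYC T58A and 340 for the libraries labelled shMYC2. AGTR1, an angiotensin receptor, led the first set, at 364, 345 and 357 normalised reads in the libraries labelled shMYC2 (at least 122-fold higher, taking 3 reads in each library without reads). GALM, a sugar epimerase, was at 132, 169 and 153 (at least 51.9-fold higher). In the second set ZNF738, a zinc finger gene, was at 808, 894 and 858 in MYC T58A (at least 272-fold lower), ZNF254 at 666, 653 and 561 and BMP5, a bone morphogenetic protein, at 738, 778 and 718. ZNF738 and ZNF254 were also high in Parental, with means of 541 and 648, whereas BMP5 stood at 17.6 there. Zinc finger names made up 32 of the 340 and 0 of the 63, beside 516 of all 15492 members. Genes of both sets reached the limit through the other group alone and had to differ, so these counts are a description.

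A low level of reads was present in groups where a gene was near silent. Genes were taken with a mean of 1000 or more in the libraries labelled shMYC2 and under 10 in every Parental, Resistant and shMYC1-labelled library. There were 10 such genes, among them APBB1IP, PTPRN2, MB21D1 and THY1, which are named in other paragraphs. In the 3 MYC T58A libraries the 10 genes stood at a median of 0.581%, 0.552% and 0.615% of their level in the libraries labelled shMYC2. In the 9 libraries of the other groups the median was 0.0389% to 0.212%. For 14 genes at 2000 or more in every library of the other 4 groups and under 30 in the libraries labelled shMYC2, the median was 0.249% to 0.323% of the MYC T58A level. Both sets were chosen by these levels. The first rule held the 9 libraries low and set no bound on MYC T58A, and the second held the libraries labelled shMYC2 low. The percentages are therefore a description, and the part of such low-level reads in the largest folds was not tested.

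**Figure D4:**
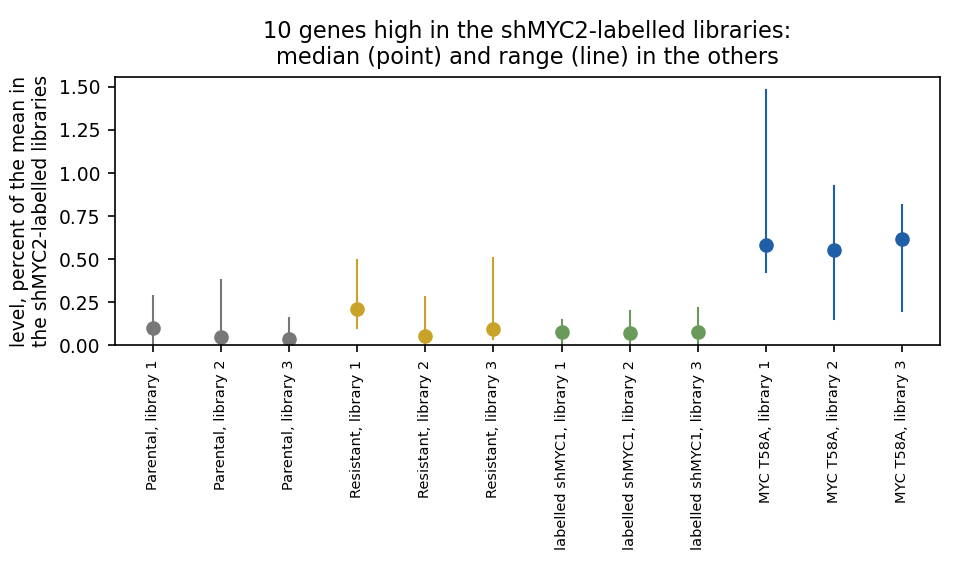
Level of 10 genes in each library of the other 4 groups, as a percentage of their mean in the libraries labelled shMYC2 (vertical axis, from 0); points are the median of the 10 genes and lines run from the lowest to the highest gene. The 3 MYC T58A libraries have medians of 0.552% to 0.615%, above the 0.0389% to 0.212% of the other 9. The genes were chosen as near silent in those 9 libraries, with no bound set on MYC T58A.

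Zinc finger genes were mostly lower in the libraries labelled shMYC2. Of 516 members named ZNF, ZFP, ZSCAN or ZKSCAN, 109 were called higher and 331 lower, and 145 were lower by 3 or more on the log2 scale against 7 higher by as much. Of the 516, 143 reached the limit of 10 in MYC T58A alone and 6 in the libraries labelled shMYC2 alone; these had to differ, so the counts are a description. On chromosome 19, 192 of 235 placed zinc finger members were lower and 12 higher, with a median log2 difference of -2.42, beside 132 lower and 97 higher of 271 on other chromosomes (median -0.20). The limit was reached in MYC T58A alone by 117 of the 235 and by 23 of the 271. On chromosome 19 the family's median was -2.14 in the libraries labelled shMYC2 and 0.19 in MYC T58A, each against Parental, which both share. ZNF91, among those, was at 3.23, 1.04 and 1.02 normalised reads in the libraries labelled shMYC2, 1076, 1072 and 940.5 in MYC T58A and 1003, 980.1 and 956 in Parental.

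Placing 13186 members (85.1%) by GENCODE 29 gene order, the lowest medians over 51 neighbouring members fell in gene clusters. On chromosome 19 the run from MAU2 to ZNF254 had a median log2 difference of -6.30, with 45 genes lower, 1 higher and 35 zinc finger names. The run from C19orf81 to ZNF331 on the same chromosome had -5.80, with 45 lower, 2 higher and 37 zinc finger names. Of the 51 genes of these runs, 35 and 37 reached the limit in MYC T58A alone and so had to differ. The neighbours did not all follow: ZNF714 was at means of 1024 and 1057 normalised reads without a call, and in the second run SHANK1, a synaptic scaffold gene, was at 2071 against 60.8 and CLEC11A, a growth factor gene, at 1751 against 118, both called higher. On chromosome 5 the run from NDUFA2 to PCDHGA11, which holds the clustered protocadherins, adhesion proteins that give neurons their identity, had -4.52, with 45 lower and 1 higher, and 38 at the limit in MYC T58A alone. Over 43 placed genes of the alpha, beta and gamma protocadherin clusters 41 were lower and 2 higher, 36 lower by 3 or more on the log2 scale, and 37 reached the limit in MYC T58A alone. PCDHB16 was at 9.69, 4.17 and 4.09 against 695, 704 and 673, while TAF7, a general transcription factor gene inside that run, was 1.44-fold lower, with means of 3092 and 4449. These clusters consist of related genes, so single members are uncertain where reads were shared.

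On a broader scale chromosome medians ran from -0.41 on chromosome 19 and -0.36 on X to 0.53 on chromosome 6 and 0.61 on chromosome 21, against -0.02 over all placed members. On chromosome 6, 431 of 690 members were higher and 141 lower. Runs with the highest medians were RPL39L to ANKRD18DP on chromosome 3 (1.10) and PGM1 to TTLL7 on chromosome 1 (1.08). In the chromosome 3 run the libraries labelled shMYC2 stood 1.05 from Parental and MYC T58A 0.04. In the chromosome 1 run the values were 0.36 and -0.59, so there MYC T58A lay below Parental. Over all 1300 placed members of chromosome 1, MYC T58A had a median of -0.43 against Parental. These comparisons share the Parental libraries.

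**Figure D5:**
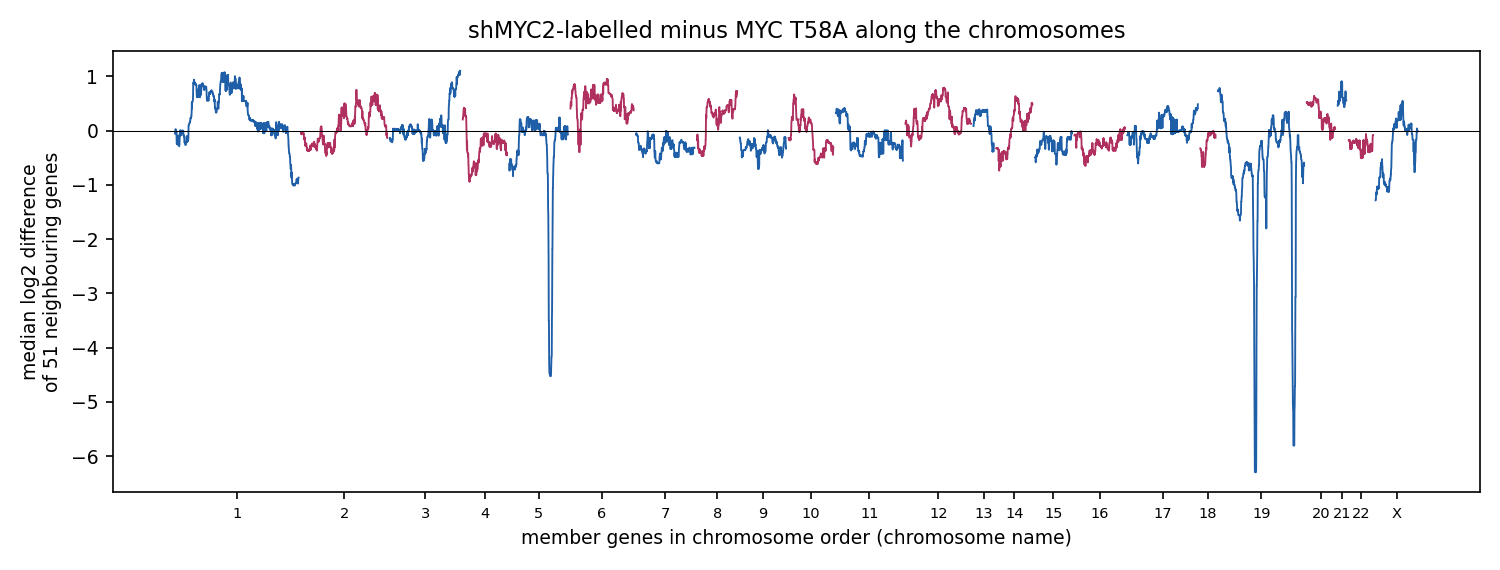
Running median of the log2 difference (libraries labelled shMYC2 minus MYC T58A, vertical axis) over 51 neighbouring member genes, in gene order along each chromosome (horizontal axis, chromosome names; colours alternate). The narrow dips, 1 on chromosome 5 at -4.52 and 2 on chromosome 19 at -5.80 and -6.30, mark the protocadherin and zinc finger clusters. A broader low stretch on chromosome 1, from WDR26 to ZBTB18, lies between -0.60 and -1.01.

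Markers of other cell types were read in the same libraries. The 9 fibroblast markers summed to 2444 to 2543 normalised reads in the libraries labelled shMYC2 and 564 to 635 in MYC T58A. In the first group most of this was THY1 at 1923, 1995 and 1930.4 (MYC T58A 12.02, 15.6 and 13.2). FAP, COL1A1 and PDGFRA had means of 271, 166 and 67.7 in the first group and 5.39, 27.00 and 35.4 in MYC T58A. PDGFRB, LUM, COL3A1, COL1A2 and DCN went the other way, with means of 21.5, 3.86, 1.75, 1.04 and 0.348 in the libraries labelled shMYC2. In MYC T58A their means were 201, 255, 39.6, 19.7 and 5.24. Of a longer list of fibroblast genes, 5 of 13 members were called higher and 7 lower, 6 at the limit in 1 group alone. Of the 11 epithelial markers 7 were in the table and summed to 2935 to 3086 and 11731 to 12985, mostly KRT8 and KRT18, and KRT5 had no read in the libraries labelled shMYC2. Smooth muscle markers, 7 of 7, summed to 568 to 661 and 419.6 to 485, with LMOD1 at 0 in the first group. Endothelial (5 of 7), immune (2 of 9) and neuronal (3 of 8) markers summed to 80.7 to 110.5, 50.1 to 73.01 and 184 to 195 in the libraries labelled shMYC2 and to 71.1 to 81.02, 129 to 158 and 182 to 211 in MYC T58A. The part of other cells in the differences was not tested.

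Some abundant genes lay close together in the 2 groups. Of 4960 members with a mean of at least 1000 in both groups, 4043 were called, 2255 had the whole 95% interval of the log2 difference within 0.5 of 0 and 829 within 0.25. By the interval nearest to 0 the most alike were UBP1, YTHDC1, SLC35A4, MAP2K1 and TRA2A. UBP1, a transcription factor gene, had 6519, 6111 and 6355 normalised reads in the libraries labelled shMYC2 and 6278, 6532 and 6137 in MYC T58A, a log2 difference with a 95% interval of -0.08 to 0.09, and both lay above Parental at 4748, 4818 and 4729. YTHDC1, a reader of methylated RNA, had 3148, 3033 and 3119 and 3119, 3119 and 3031, with an interval of -0.08 to 0.09. SLC35A4 matched between the groups as well (2866, 2931 and 2841 and 2834, 2766 and 3049) but differed in its change from the labelled origin, 0.70 on the log2 scale (limma adjusted p = 1.08e-08), since Resistant stood at a mean of 1676 and Parental at 2721. With equal library totals in place of the deposited scaling, the median log2 difference of members moved from -0.03 to -0.20, and differences near 0 shift with it.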

How the data were processed

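The mRNA of 15 A375 libraries was sequenced by the submitters after extraction with a Qiagen RNeasy kit and a Kapa stranded library kit, per the labels' protocols. The submitters' processing notes list STAR, HTSeq, DESeq2, Trim Galore and cutadapt, without versions; genome build, annotation and counted strand: not given in the sources used here. Values in the table deposited by the authors are a signal, read counts over a library-wise size factor, which was read from the values: whole reads were recovered for 100% of values within 0.01, and size factors recomputed from them differed by at most 0.0186%. Every gene of the table has at least 10 reads in its highest library.

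Columns carry the group names and were all mapped to groups. The 17012 genes reaching 10 in at least 3 of 15 libraries were fitted as log2(value + 1) with limma 3.58.1 (trend, robust) in R 4.3.3. Fold changes on this scale understate those of low genes; printed folds are ratios of group means, and with 0 reads in a group a floor of 3 reads per library was used. Alternatives were edgeR 4.0.16 and DESeq2 1.42.0 on recovered reads, other scalings, filters, pseudocounts and thresholds, fits on fewer libraries, and leaving out each library. On simulated data for this comparison (17012 genes, 50 changed per fold) the test recovered 90% at 1.5-fold and 100% at 2-fold, 4-fold and 8-fold, and 4.88% of calls were false. The changed genes were drawn from those with a mean of at least 50 in MYC T58A. Far fewer genes changed than were called in the real data. Whether these rates hold for lower genes or with so many differences was not tested.

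Named genes are MYC and its partners, SOX10, MITF, BRAF, NRAS, EGFR, AXL and DUSP6, the 10 largest called differences in each direction (mean of at least 100 and 10), the 6 highest genes without reads in 1 group, of each gene list up to 3 called members in the more frequent direction and 2 in the other (mean of at least 50), the 5 most alike and those at the limit; genes of the cluster runs, ZNF91, PCDHB16, the shared changes, the marker genes and the E-box promoters were chosen after their values were seen. 1 gene that met the rule is not reported here. The members and lists were chosen with earlier results of these data known.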

Additional observations from a re-analysis of the deposited data

How the results depend on the processing

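The direct comparison gave 11143 to 13014 called members under 20 of the 21 alternatives, and 7630 with a minimum log2 difference of 0.5. The difference of the changes gave 11494 to 11976 under 18 of 19, and 7310 with that minimum. Leaving out each library in turn gave 12292 to 12362 and 11494 to 11751. With equal library totals 40.3% of direct calls were higher in place of 48.1%. Members raised in both groups ranged from 417 (minimum 0.5) to 3080 (quantile normalisation) and members lowered in both from 729 to 2429.

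Of 225 named genes, 207 kept direction and call under each alternative, 11 changed call and 7, not called as reported, changed sign. Under quantile normalisation the log2 difference was -0.10 for MGA, -0.11 for TRA2A, -0.14 for UBP1 and -0.12 for YTHDC1. With equal library totals it was -0.17 for MGA, -0.079 for MXI1, -0.17 for TRA2A, -0.17 for UBP1 and -0.17 for YTHDC1. By limma TRA2A, UBP1 and YTHDC1 were then called lower, with adjusted p of 0.022, 0.0030 and 0.0088 under quantile normalisation and 0.0014, 4.87e-04 and 6.07e-04 with equal library totals. Leaving out 1 library gave the ranges -0.0274 to 0.0158 for MAP2K1, -0.0371 to 0.0724 for MGA, -0.0300 to 0.0402 for SLC35A4, -0.0311 to 0.0255 for TRA2A, -0.0189 to 0.0277 for UBP1 and -0.00894 to 0.0205 for YTHDC1. These values lie near 0, and the cause of the changes was not tested.

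No paired analysis was possible because the columns carry running numbers rather than the replicate numbers of the labels. With 3 libraries in a group, 1.5-fold changes were recovered less often on simulated data than larger ones, and for genes without reads only a bound of the fold is given.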
